A study of Mus musculus with 18 samples.

Results

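The change from neural stem cell (NSC) to astrocyte under bone morphogenetic protein 4 (BMP4) was compared between spinal cord cultures traced by DNGR-1 and hippocampal cultures. RNA was measured in all 18 libraries of the series, 3 replicates in each of 6 groups. Of the 27997 genes in the deposited table, 15448 were tested, namely those with a log2 value of 3.32 or more (a linear value of 10) in 3 or more libraries. For each gene the value in NSCs was subtracted from that in astrocytes within each line, and the difference between origins is the change in traced cultures minus that in hippocampal cultures. A positive difference therefore means a change that was more positive in traced cultures, and a negative difference means a change that was more positive in hippocampal cultures. All values are log2 values as deposited, and all changes and differences are on that scale.

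The traced cultures came from spinal cords of mice heterozygous for a Cre recombinase placed in the DNGR-1 (Clec9a) locus, which marks cells with a history of DNGR-1 expression. One line carried the tdTomato reporter (labelled DNGR-1 +/- Tom+/-) and the other the EYFP reporter (labelled DNGR-1 +/- EYFP+/-), each in a single copy, and the traced cells had been sorted from neurospheres before they were grown attached. The third line came from the hippocampus of mice labelled DNGR-1+/+, which carried GlastCre, a floxed Huwe1 allele and an EYFP reporter. Huwe1 was at 12.97 to 13.35 in hippocampal libraries and at 13.01 to 13.38 in traced libraries. NSCs were grown for 4 days on laminin with EGF and bFGF (20 ng/ml each) and heparin. For astrocytes this medium was replaced after a day by medium with BMP4 (20 ng/ml), which was renewed on day 3, and cells were collected on day 6. The addition of BMP4, the removal of the growth factors and the later time point cannot be told apart. Each line was 1 culture line and its replicates were successive passages, 10 to 12. With only 1 hippocampal line, the origin, the line and the genotype cannot be told apart either, and p-values measure the spread between cultures of these lines. Xist lay between 13.09 and 14.99 in the tdTomato line and between 5.04 and 5.59 in the other lines, while the Y-linked Ddx3y lay at 4.29 to 4.53 in the tdTomato line and at 8.43 to 9.92 in the others.

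BMP4 binds serine/threonine kinase receptors on the cell surface, and these phosphorylate Smad proteins that enter the nucleus with Smad4 and switch on target genes such as the Id genes. In neural stem cells BMP signalling is known to favour exit from the cell cycle and astrocytic differentiation, while EGF and bFGF keep the cells dividing. Astrocytes can also switch on genes of inflammation, interferon responses and antigen presentation, a set of states known together as reactive.

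The transform behind the deposited values is not named in the sources used here, and 29.39% of the values are negative, so the absence of reads has no known value. A change against a group below 3.32 is given as it was fitted, and it is not a bound. The depth behind each value is unknown. Libraries of the same group differed by a median of 0.06 to 0.11 per gene, and no 2 libraries of the same group held identical values. In cultures, fewer cells of a kind and less RNA per cell cannot be told apart.

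The change differed between the origins for 6526 of the 15448 genes tested (42.2%; limma with Benjamini-Hochberg adjustment, adjusted p under 0.05). It was more positive in traced cultures for 2870 genes (18.6%) and more positive in hippocampal cultures for 3656 (23.7%). When the median of all genes was set equal in the libraries, these counts were 3752 and 2890, and with quantile normalization they were 3577 and 3040, so the balance between the directions rests on the scaling. The median difference over all genes was small, at -0.03. A difference of at least 1 was found for 1540 genes (9.97%), of which 582 (3.77%) were more positive in traced cultures and 958 (6.20%) in hippocampal cultures. The larger differences were thus more often towards hippocampal cultures, and they remained so in number after median centring (686 and 844) and after quantile normalization (682 and 877). For comparison, 6162 genes rose (39.9%) and 5952 fell (38.5%) in the tdTomato line, 5907 rose (38.2%) and 5716 fell (37.0%) in the EYFP line, and 6027 rose (39.0%) and 5759 fell (37.3%) in the hippocampal line. The traced lines differed from each other in the change of 2060 genes (13.3%), and that difference was counted as spread in the comparison of the origins.

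Genes with a difference between origins were then sorted by the pattern of their change. A gene was taken to change in traced cultures only where it changed by at least 1 in both traced lines and by less than 0.5 in the hippocampal line, and the converse was required for a change in hippocampal cultures only. By this rule 148 genes rose and 102 fell in traced cultures only, and 186 rose and 67 fell in hippocampal cultures only, 503 genes in all. Another 86 genes went in opposite directions by at least 0.5 in all lines: 35 rose in traced and fell in hippocampal cultures, and 51 did the reverse. A further 594 changed the same way in all lines but by amounts that differed by at least 1. Of these, 158 rose more in traced and 304 rose more in hippocampal cultures, 83 fell more in traced and 49 fell more in hippocampal cultures. Of the 186 genes that rose in hippocampal cultures only, 37 stayed below 3.32 in traced cultures throughout. For 46, the mean of traced NSCs was within 1 of the mean of hippocampal astrocytes, and the remaining 103 met neither description. For the 148 genes that rose in traced cultures only, these numbers were 48, 23 and 77. Some genes passed the limit on low values through the libraries of 1 group alone and so had to differ. These were 28 of the 186 and 3 of the 148. They were also 24 of the 304 genes that rose more in hippocampal cultures and between 0 and 3 in each of the other classes, and the counts of all these classes are a description.

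**Figure D1:**
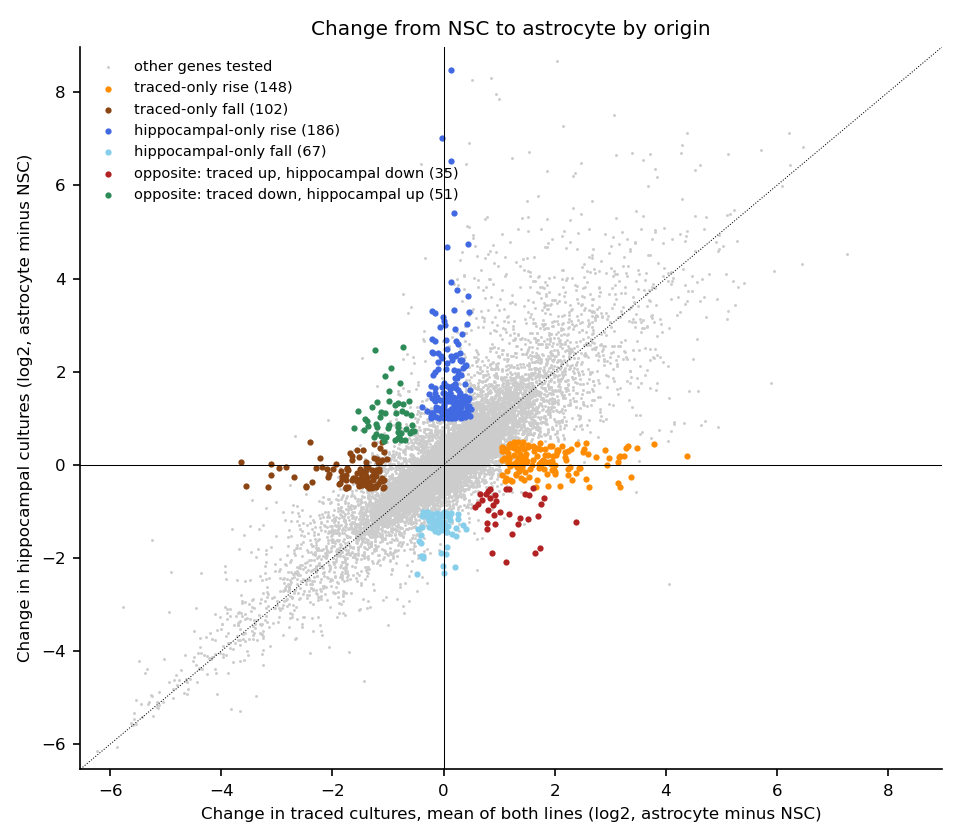
Each point is a gene tested, with the mean log2 change from NSC to astrocyte over both traced lines on the horizontal axis and the log2 change in the hippocampal line on the vertical axis; the dotted line marks equal changes. The coloured points are the genes that changed in 1 origin only (148, 102, 186 and 67 genes) or in opposite directions (35 and 51 genes), and most other genes lie along the dotted line.

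The largest differences were rises in hippocampal cultures, and they included genes that were near the floor of the table everywhere else. Serpina3m, a serine protease inhibitor of the Serpina3 cluster (chromosome 12, 104338486 to 104394257, GRCm38), was at 10.19, 9.13 and 8.95 in the 3 hippocampal astrocyte libraries. In the other 15 libraries it lay between 0.86 and 1.77, with no overlap. The change was 8.47 in the hippocampal line against 0.18 and 0.08 in the tdTomato and EYFP lines, a difference of -8.35 (SE 0.35). Of its transcript sequence, 9.65% of stretches of 75 bases also occur in other genes. Cnmd, which encodes the cartilage glycoprotein chondromodulin, was at 8.31, 7.90 and 8.42 in hippocampal astrocytes and at 0.83 to 1.90 elsewhere (difference -7.05, SE 0.32). Aspg, an asparaginase often listed among reactive astrocyte genes, was at 9.46, 9.16 and 9.52 in hippocampal astrocytes. It reached 1.86 to 2.35 in tdTomato and 1.41 to 2.32 in EYFP astrocytes, and the difference was -7.45 (SE 0.27). Kcna1, a voltage-gated potassium channel subunit, was at 5.79, 5.97 and 5.31 in hippocampal astrocytes and at 0.60 to 1.45 in all other libraries. These 4 genes, like Mx1, passed the limit on low values only through hippocampal astrocytes and so had to differ, and their differences are a description. Ppl, which encodes the cytolinker periplakin, rose in all lines, by 2.14 and 1.95 in the tdTomato and EYFP lines and by 8.67 in the hippocampal line.

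Other genes that rose in hippocampal cultures only were above the limit of 3.32 in traced cultures and stayed there. Rasl11a, a small GTPase of the Ras family, was at 6.82 to 7.32 in all 9 NSC libraries. It was at 6.52 to 7.46 in traced astrocytes and at 10.48, 10.10 and 10.21 in hippocampal astrocytes, so the groups did not overlap. Its difference was -3.19 (SE 0.24, adjusted p = 1.3e-08, limma). Cnn3, an actin-binding calponin, changed by 1.55 in the hippocampal line and by -0.03 and -0.00 in the tdTomato and EYFP lines. Slc7a11, the cystine and glutamate exchanger, changed by 1.75 against 0.28 and -0.28. Tgif1 and Ltbp1, a corepressor and a latency protein of the TGF-beta pathway, rose by 1.28 and 1.43 in the hippocampal line.

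Interferon-stimulated genes, which encode antiviral proteins and the factors that switch these on, differed between the origins as a group. All 34 genes tested of the list of 36 changed more positively in hippocampal than in traced cultures, 30 of them by at least 1, against 23.7% and 6.20% of all genes tested. Their median change was 3.57 in the hippocampal line, 1.02 in the tdTomato line and 0.82 in the EYFP line, and the median difference was -2.44. In this list 5 genes (Mx1, Oas2, Isg15, Oasl1 and Bst2) were below 3.32 in all traced groups and were tested only because of their level in hippocampal cultures. All of the other 29 were more positive in hippocampal cultures, 25 of them by at least 1. Of all genes, 14647 remained when those below 3.32 in all groups of an origin were left out, and of these 23.7% were more positive in hippocampal cultures, 5.41% by at least 1. This count was added after the data had been seen. The list did not respond in 1 origin alone: all 34 rose in the hippocampal line, and 24 rose in the tdTomato line and 22 in the EYFP line, with 3 that fell in each. Over the alternative settings 25 to 35 genes of the list were more positive in hippocampal cultures, the fewest with the limit on low values raised to 100. In NSCs the mean over the list was alike in the lines, at 4.74 to 4.81 in tdTomato, 4.89 to 4.98 in EYFP and 4.87 to 5.00 in hippocampal libraries. Of the 34 genes, 10 were below 3.32 in all NSC groups, so this likeness rests in part on low values. In astrocytes the mean was 5.92, 6.03 and 6.02 in the tdTomato line, 5.76, 5.92 and 5.81 in the EYFP line and 8.97, 8.49 and 8.38 in the hippocampal line. The first hippocampal astrocyte library was the highest, and all 3 lay above every traced library.

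Oasl2, of the 2'-5' oligoadenylate synthetase family, was at 11.50, 10.37 and 10.24 in hippocampal astrocytes. It was at 3.53 to 4.18 in traced astrocytes and at 2.66 to 3.20 in all NSC libraries, and the difference was -6.86 (SE 0.33, adjusted p = 6.5e-11, limma). Without the first hippocampal astrocyte library the difference of Oasl2 was -6.47. Ifit1, which binds foreign RNA, was at 11.15, 10.04 and 9.88 in hippocampal astrocytes and at 4.92 to 6.17 in traced astrocytes, from 2.81 to 3.76 in NSCs (difference -5.11, SE 0.39; -4.71 without that library). Mx1, an antiviral GTPase of the dynamin family, was at 7.69, 6.61 and 6.80 in hippocampal astrocytes and at 0.84 to 2.62 in all other libraries. Without a hippocampal astrocyte library Mx1 no longer passed the limit on low values, which only these 3 libraries met. Rsad2, the antiviral enzyme viperin, changed by 3.30 in the hippocampal line (95% interval 2.79 to 3.81) and by -0.06 and -0.34 in the traced lines, where it stayed at 3.41 to 4.27. Stat2, a transducer of the interferon signal, differed less and changed by 1.86 against 1.05 and 1.09. Irf7 changed by 3.42 in the hippocampal line, by 1.70 in the tdTomato line and by 0.22 in the EYFP line.

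The promoters of these genes were read from RefSeq (GRCm38.p6), and 4 are shown as examples, chosen after their values were seen, of genes that hold the letters of the interferon-stimulated response element and differed by over 3 between the origins. Ifit3 and Trim30a met the same description and are not shown. The sequences are the 150 bases before the start of each gene, 5′ to 3′ on the strand of the gene, and the capitals mark each match to GAAA, any 2 bases and GAAA, on either strand, with overlapping matches run together. Isg15 and Bst2 changed by 4.08 and 3.38 in the hippocampal line, by 0.66 and -0.68 in the tdTomato line and by 0.10 and -0.47 in the EYFP line. Isg15, a ubiquitin-like protein, and Rsad2, Ifit1 and Bst2, a membrane tether of viruses, lie at chr4:156200819-156200968 (minus strand), chr12:26456453-26456602 (minus strand), chr19:34640739-34640888 (plus strand) and chr8:71537473-71537622 (minus strand) respectively.
Isg15: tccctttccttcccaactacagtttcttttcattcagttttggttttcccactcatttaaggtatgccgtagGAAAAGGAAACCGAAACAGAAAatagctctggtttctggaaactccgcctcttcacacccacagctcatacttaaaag
Rsad2: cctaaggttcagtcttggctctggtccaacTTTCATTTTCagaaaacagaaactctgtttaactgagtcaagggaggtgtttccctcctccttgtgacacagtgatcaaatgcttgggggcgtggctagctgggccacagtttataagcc
Ifit1: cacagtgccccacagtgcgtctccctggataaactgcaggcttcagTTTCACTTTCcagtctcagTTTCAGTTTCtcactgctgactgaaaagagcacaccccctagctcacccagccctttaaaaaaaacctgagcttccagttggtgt
Bst2: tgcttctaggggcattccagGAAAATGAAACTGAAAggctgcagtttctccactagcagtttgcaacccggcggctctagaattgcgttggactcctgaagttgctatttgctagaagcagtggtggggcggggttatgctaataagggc

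Isg15 held 3 overlapping matches, Ifit1 held 2 that were apart, Bst2 held 2 that overlapped and Rsad2 held 1. In windows of 300 bases, from 250 before to 50 after the start, the motif was found on either strand in 15 of the 24 tested interferon-stimulated genes that had a RefSeq promoter (62.5%), against 392 of the 10946 tested genes with a promoter (3.58%). Among the classes it was found in 24 of 228 genes that rose more in hippocampal cultures (10.5%), in 8 of 126 that rose there only (6.35%), in 3 of 93 that rose in traced cultures only (3.23%) and in 1 of 105 that rose more in traced cultures (0.952%). The letters of STAT, Smad, Rbpj and Rfx sites were searched too. They were found in 29.2%, 4.17%, 8.33% and 8.33% of the 24 interferon-stimulated genes. Among the 10946 genes the shares were 8.28%, 24.96%, 7.35% and 3.23%. A match to any of these letters is a description of the sequence and not a bound site.

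Genes of antigen presentation by MHC class I, many of which are also induced by interferon, moved in the same direction. Of the 21 tested, 18 changed more positively in hippocampal cultures, 11 of them by at least 1, and none more positively in traced cultures. These were 85.7% of the list, against 23.7% of all genes. Without Psmb8 and H2-Q6, which were below 3.32 in all traced groups, the counts were 16 and 9 of 19. B2m, the light chain of class I molecules, changed by 1.70 in the hippocampal line and by 0.25 and 0.07 in the tdTomato and EYFP lines. Tap1, a peptide transporter, changed by 1.10 against -0.29 and -0.11, and Psmb9, an immunoproteasome subunit, by 1.32 against 0.10 and 0.42. The heavy chain gene H2-K1 went in opposite directions, at 1.07 in the hippocampal line and -0.60 and -0.58 in the traced lines. So did H2-Q4, a class Ib gene on chromosome 17 (35379617 to 35385290), which was at 7.47, 7.63 and 7.59 in hippocampal NSCs and at 9.47, 8.93 and 9.05 in the astrocytes. In traced cultures H2-Q4 lay at 6.90 to 7.32 in NSCs and at 5.69 to 6.56 in astrocytes, without overlap (difference -2.56, SE 0.19). H2-Q7 fell in traced cultures only, by 2.99 and 1.82. The class I genes are close copies of each other: 7.02% of the 75-base stretches of H2-Q4 and 16.95% of those of H2-Q7 also occur in other genes, so reads may have been divided among them. Nlrc5, the transactivator of class I genes, changed by 3.74 in the hippocampal line, by 1.57 in the tdTomato line and by 0.54 in the EYFP line (difference -2.69, SE 0.38).

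**Figure D2:**
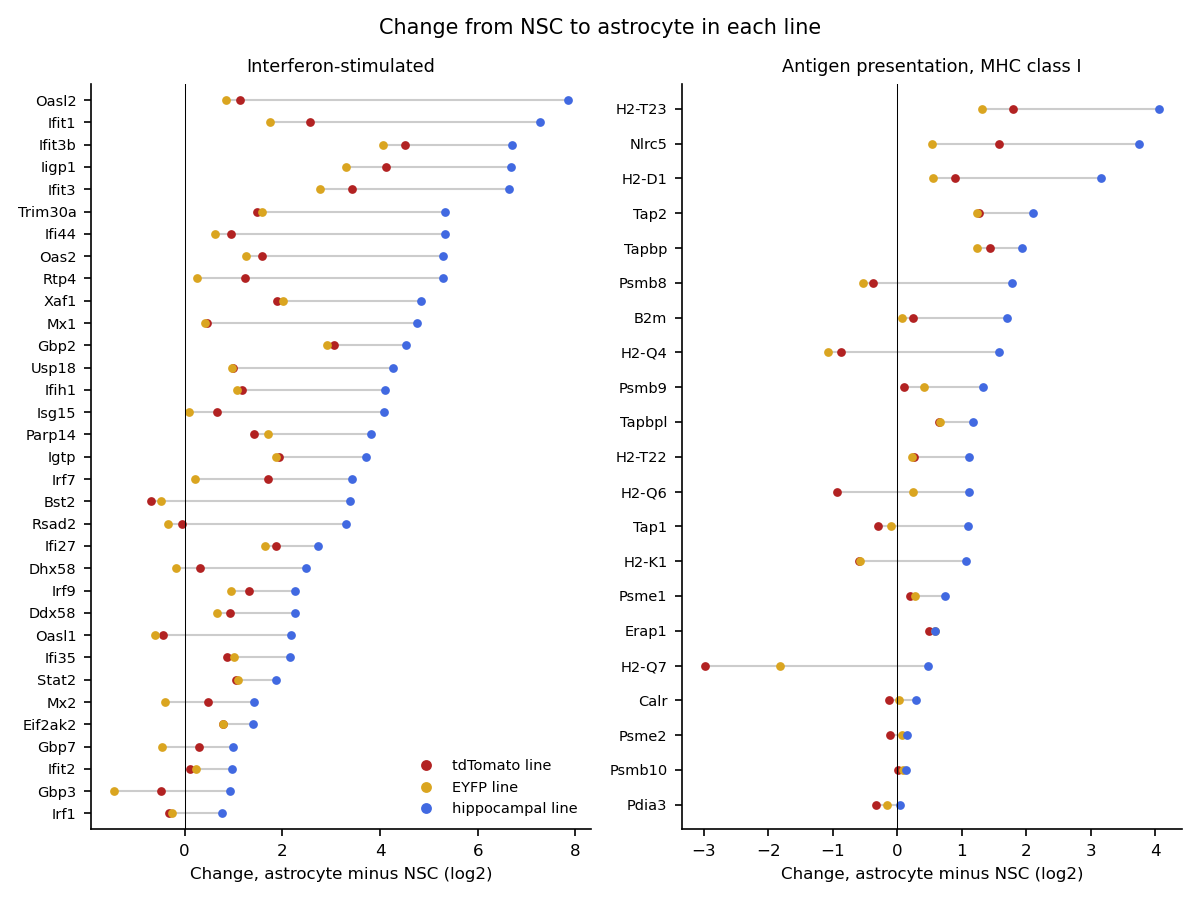
Each row is a gene, with its log2 change from NSC to astrocyte in the tdTomato (red), EYFP (yellow) and hippocampal (blue) line on the horizontal axis and a grey line over their range. The interferon-stimulated genes are on the left and those of MHC class I presentation on the right; the hippocampal change is the most positive of the 3 for every gene shown on the left, where 1 of the 34 genes tested is not drawn.

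Reactive astrocyte genes also changed more positively in hippocampal cultures, for 28 of the 32 tested, 25 of them by at least 1 (median difference -2.33), and for none in traced cultures. These were 87.5% of the list, against 23.7% of all genes, but Srgn, Psmb8 and Aspg were below 3.32 in all traced groups and B3gnt5 in both hippocampal groups. Of the other 28, 24 were more positive in hippocampal cultures, 21 of them by at least 1. This list shares Gbp2 and Iigp1 with the interferon list and H2-D1, H2-T23 and Psmb8 with the MHC class I list. Lcn2, which encodes the iron carrier lipocalin 2, rose by 6.27 in the hippocampal line and by 2.35 and 2.37 in the tdTomato and EYFP lines. Cd14, a co-receptor for bacterial lipopolysaccharide, changed by 4.44 against -0.17 and -0.51, and Ggta1, a galactosyltransferase, by 4.88 against 0.92 and 0.14. Serpina3n rose by 6.87, 3.95 and 4.64 in the hippocampal, tdTomato and EYFP lines, and Timp1, an inhibitor of matrix metalloproteinases, by 2.33 in the hippocampal line, against 0.06 and 0.21. Gfap, the intermediate filament by which astrocytes are recognised, rose by 7.13, 6.08 and 6.37, a difference of -0.90 (adjusted p = 0.004, limma).

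Among 16 complement genes 8 changed more positively in hippocampal and 1 in traced cultures (50% and 6.25%, against 23.7% and 18.6% of all genes). Serping1, the C1 inhibitor, rose by 5.28 in the hippocampal line against 1.86 and 1.85 in the traced lines. Clu, the chaperone clusterin, was at 15.72, 15.77 and 15.74 in hippocampal astrocytes, at 12.29 to 12.64 in tdTomato and at 13.26 to 13.42 in EYFP astrocytes, from 8.18 to 8.92 in NSCs (difference -2.74, SE 0.16). C2 was the exception, with a larger fall in the hippocampal line, but 36.97% of its sequence stretches occur in other genes. Of 31 chemokine, cytokine and receptor genes, 16 changed more positively in hippocampal and 4 in traced cultures (51.6% and 12.9%), or 15 and 4 of 30 without Tnfrsf11b, which was below 3.32 in all traced groups. Cxcl10, an interferon-induced chemokine, changed by 2.70 in the hippocampal line and by -0.19 and -0.24 in the traced lines, and Ccl2, which attracts monocytes, by 1.47 against 0.35 and -0.07. Cx3cl1 went the other way, with a rise of 1.85 and 1.61 in the traced lines and of 0.73 in the hippocampal line.

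Genes of the motile cilium, the organelle by which ependymal cells move cerebrospinal fluid, mostly rose in all lines. Of 22 tested, 16 rose and 3 fell in tdTomato cultures, 15 rose and 2 fell in EYFP cultures, and 20 rose and 2 fell in hippocampal cultures. Hydin and Myb fell in every line. The change was more positive in hippocampal cultures for 15 (68.2%, against 23.7% of all genes), 12 by at least 1, and in traced cultures for none. Spag6l, Rsph4a, Dnah6 and Ccdc153 were below 3.32 in all traced groups and were tested only because of their level in hippocampal cultures. Of the other 18, 11 were more positive in hippocampal cultures, 8 of them by at least 1. The mean over these genes was 4.34 to 4.64 in all NSC libraries, 5.53 to 5.71 in traced astrocytes and 6.89, 6.79 and 7.05 in hippocampal astrocytes. Dnah6, a dynein heavy chain of the axoneme, rose by 5.78 in the hippocampal line and by 1.54 and 1.85 in the tdTomato and EYFP lines (difference -4.09, SE 0.39). Spag6l, of the central pair of microtubules, changed by 3.01 against 0.48 and 0.35. The master regulator Foxj1 changed by 1.85 in the hippocampal line, by 1.60 in the tdTomato line and by 0.89 in the EYFP line. The letters GTTGCC, any 2 bases and GG are part of the site of the Rfx factors that switch on cilium genes. They were found on either strand in 4 of 18 promoters of this list (22.2%), against 354 of 10946 (3.23%). The letters of STAT, Smad and Rbpj sites were found in 5.56%, 27.8% and 0% of the list, against 8.28%, 24.96% and 7.35%.

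Genes of S100 proteins, annexins and the cytoskeleton differed in the same direction, 19 of 24 (79.2%) more positively in hippocampal and none in traced cultures, against 23.7% and 18.6% of all genes. Without S100a3, which was below 3.32 in all traced groups, the count was 18 of 23. S100a4, S100a6 and S100a11 rose by 4.69, 3.47 and 3.05 in the hippocampal line and by 3.02, 2.45 and 1.64 in the tdTomato line, but 44.79% of the sequence stretches of S100a4 occur in other genes. Vim, the intermediate filament vimentin, rose by 2.24 in the hippocampal line and by 0.66 and 0.74 in the traced lines, and Synm, which encodes synemin, by 3.50 against 1.06 and 2.15. Ezr, the membrane linker ezrin, went in opposite directions, at 1.14 in the hippocampal line and -0.83 and -1.41 in the traced lines. Among 35 collagen and basement membrane genes, 13 changed more positively in hippocampal and 8 in traced cultures (37.1% and 22.9%, against 23.7% and 18.6% of all genes). Col3a1, Col6a3 and Col4a3 were below 3.32 in both hippocampal groups and Lama2 in all groups of both origins, and without these 4 the counts were 12 and 7 of 31. Col6a1 and Col6a2, chains of the same collagen, rose by 7.52 and 6.48 in the hippocampal line. In the tdTomato and EYFP lines Col6a1 rose by 2.32 and 3.82, and Col6a2 by 2.27 and 2.69.

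Fewer genes fell in hippocampal cultures only. Pde7b, which degrades cyclic AMP, was alike in all groups but one: it was at 9.0 to 9.46 in all NSC libraries, at 9.06 to 9.40 in traced astrocytes and at 6.77, 7.34 and 7.31 in hippocampal astrocytes. The difference was 2.17 (SE 0.14, adjusted p = 3e-09, limma). Cbs, cystathionine beta-synthase of the transsulfuration pathway, was at 8.78, 8.82 and 8.67 in hippocampal NSCs and at 6.61, 6.65 and 6.41 in the astrocytes, and at 7.27 to 7.86 in all traced libraries. It thus began above and ended below the traced cultures. Nxph1, a neurexin ligand, was at 9.50 to 9.56 in hippocampal NSCs and at 7.55 to 7.77 in the astrocytes, which is where it lay in traced cultures (6.97 to 7.90). Dact1, an antagonist of Wnt signalling, fell by 2.35 in the hippocampal line, and changed by -0.45 and -0.48 in the tdTomato and EYFP lines. St6gal2, a sialyltransferase, fell by 2.32, but the traced lines differed in its level, at 6.80 and 4.57 in NSCs, and its difference missed the threshold when the line was left out of the model (adjusted p = 0.084, limma). Fabp7, the fatty acid-binding protein of radial glia, and Ncan, the proteoglycan neurocan, fell by 1.38 and 1.34 in the hippocampal line, while in the tdTomato and EYFP lines Fabp7 fell by 0.49 and 0.42 and Ncan changed by 0.19 and -0.12. The guidance genes Robo1, Unc5d and Efnb1 fell there by 1.09, 1.21 and 1.07, with changes between -0.40 and 0.25 in the traced lines. Unc5d was below 3.32 in all groups of an origin, and its place among these genes is a description.

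The genes that rose in traced cultures only included receptor subunits, a Wnt ligand and guidance receptors. Kctd12, an auxiliary subunit of GABA-B receptors (chromosome 14, 102976581 to 102982637), was at 11.95, 12.19 and 12.25 in tdTomato and at 11.83, 11.85 and 12.03 in EYFP astrocytes. It was at 9.36 to 9.95 in all NSC libraries and at 9.45, 9.71 and 9.52 in hippocampal astrocytes (difference 2.86, SE 0.11, adjusted p = 5.1e-12, limma). Chrna5, a nicotinic acetylcholine receptor subunit, was at 9.37, 9.31 and 9.36 in tdTomato and at 7.91, 8.14 and 7.78 in EYFP astrocytes, and at 5.81 to 6.04 in hippocampal astrocytes, from 4.90 to 5.82 in NSCs. Its change also differed between the traced lines, at 4.00 and 2.97. Gabra2, a GABA-A receptor subunit, rose by 3.35 and 2.62 and changed by 0.14 in the hippocampal line. Snai2, a transcription factor of neural crest and mesenchymal cells, rose by 3.56 and 2.33 and stayed low in hippocampal cultures, at 2.20 to 3.79 throughout. Wnt4, a secreted Wnt ligand, was at 3.20 to 4.40 in traced NSCs and at 5.93 to 7.42 in traced astrocytes, but hippocampal cultures held it at 6.25 to 6.50 in NSCs and 5.71 to 6.13 in astrocytes. The rise of Wnt4 in traced cultures thus ended near the level that hippocampal cultures had from the start. Axin2, a feedback target of Wnt signalling, rose by 1.44 and 1.07 in the traced lines and changed by 0.01 in the hippocampal line. St6galnac5, which adds sialic acid to gangliosides, rose by 3.01 and 3.61. The guidance receptors Nrp1 and Robo2 rose by 1.32 and 2.13 in the tdTomato line and by 1.67 and 1.77 in the EYFP line.

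**Figure D3:**
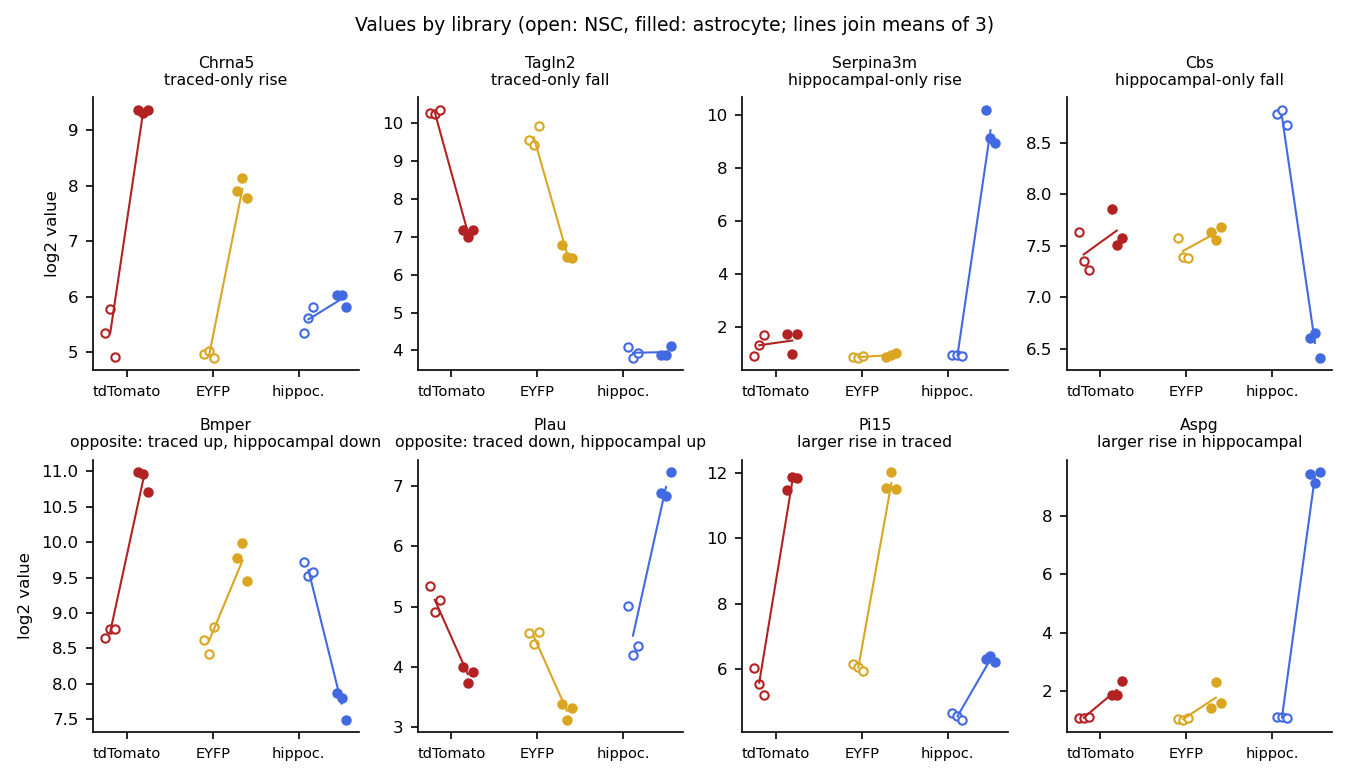
Each panel gives the log2 values of a gene in every library, by line on the horizontal axis, with open points for NSCs, filled points for astrocytes and a line joining the means of 3 libraries; the vertical axes differ between panels. Chrna5 and Tagln2 changed in traced cultures, Serpina3m and Cbs in hippocampal cultures, Bmper and Plau in opposite directions, and Pi15 and Aspg more in traced and in hippocampal cultures respectively.

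Genes that fell in traced cultures only included enzymes of biosynthesis that all NSCs expressed at like levels. Psat1, an enzyme of serine synthesis, was at 13.06 to 13.91 in all NSC libraries, at 10.95 to 11.19 in traced astrocytes and at 12.80, 12.53 and 12.56 in hippocampal astrocytes (difference -2.02, SE 0.13, adjusted p = 1.9e-09, limma). Of 33 genes of cholesterol and fatty acid synthesis, 18 changed more negatively in traced cultures, 7 of them by at least 1, and 1, the desaturase gene Scd1, more negatively in hippocampal cultures (54.5% and 3.03%, against 23.7% and 18.6% of all genes). Most of the list fell in every line, with 29 falls in tdTomato, 31 in EYFP and 28 in hippocampal cultures and with median changes of -1.79, -1.41 and -0.82. Fdft1, squalene synthase, fell by 2.04 and 1.56 in the traced lines and changed by -0.28 in the hippocampal line, and Sqle, squalene epoxidase, fell by 1.57 and 1.16 against -0.37. Hsd17b7, which acts in the same pathway, fell by 1.50 and 0.91 in the traced lines and rose by 0.66 in the hippocampal line.

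Tagln2, an actin-binding transgelin, was at 10.26, 10.25 and 10.35 in tdTomato and at 9.54, 9.41 and 9.91 in EYFP NSCs, and at 6.45 to 7.18 in traced astrocytes. In hippocampal cultures it was at 3.81 to 4.11 in both states, so it was low there before and after, and the difference of -3.13 (SE 0.16) rests on a gene that only traced cultures expressed at a high level. Trim71, an RNA-binding protein of early stem cells, was likewise at 1.64 to 2.60 in hippocampal libraries. It was at 6.28 to 6.89 in tdTomato NSCs, at 4.15 to 4.70 in EYFP NSCs and at 1.64 to 3.38 in traced astrocytes. B3gnt5, a glycosyltransferase of glycolipids, fell by 3.57 and 3.55 from 7.64 and 6.31, and was at 2.66 in hippocampal NSCs. Thbs1, a matrix glycoprotein that activates TGF-beta, was expressed in all NSCs, at 6.74 to 8.82, and fell to 5.00 to 5.97 in traced astrocytes while hippocampal astrocytes held 7.18 to 7.46. The transcription factor genes Runx1 and Runx2 fell by 1.09 and 1.02 in the tdTomato line and by 1.68 and 1.13 in the EYFP line, and changed by -0.28 and 0.27 in the hippocampal line.

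Among the genes that rose in traced and fell in hippocampal cultures, Bmper had the largest difference of the protein-coding genes with a group mean of at least 6.64 (100 on the linear scale). Bmper encodes a secreted protein that binds BMPs and tunes their signal (chromosome 9, 23223076 to 23485200). It was at 8.65, 8.78 and 8.77 in tdTomato NSCs and at 10.99, 10.96 and 10.71 in the astrocytes, and at 8.62, 8.43 and 8.81 in EYFP NSCs and 9.77, 9.99 and 9.45 in the astrocytes. In the hippocampal line it went from 9.72, 9.52 and 9.58 to 7.88, 7.80 and 7.49. NSC and astrocyte libraries did not overlap in any line, and the difference was 3.52 (SE 0.26, adjusted p = 1.4e-08, limma), with a larger rise in the tdTomato than in the EYFP line (2.15 and 1.12). Timp4, an inhibitor of metalloproteinases, was at 10.93 to 11.49 in traced NSCs and at 12.70 to 13.04 in traced astrocytes, and went from 11.73 to 11.90 down to 10.59 to 10.86 in hippocampal cultures. Kcnc4 and Kcnh2, which encode voltage-gated potassium channel subunits, rose in the tdTomato line by 1.15 and 1.64 and in the EYFP line by 0.58 and 0.82. In the hippocampal line they fell by 1.89 and 1.49. Myrf, the transcription factor of myelin genes, rose by 1.69 and 1.94 and fell by 0.72. Disp2, of the Dispatched family of hedgehog release proteins, rose by 1.31 and 1.60 and fell by 0.62.

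In the reverse direction, Plau, the protease urokinase, had the largest difference (-3.70, SE 0.23, adjusted p = 2e-09, limma). It was at 4.37 to 5.33 in traced NSCs and at 3.12 to 3.99 in traced astrocytes, and went from 5.01, 4.19 and 4.35 to 6.89, 6.84 and 7.23 in hippocampal cultures. Gjc3, the connexin gene of myelinating glia, was at 9.30 to 9.51 in tdTomato and 9.92 to 10.19 in EYFP NSCs and fell to 8.21 to 8.51 and 8.93 to 9.42. In the hippocampal line Gjc3 rose from 8.24, 8.16 and 8.30 to 10.20, 10.35 and 10.37. Matn2, a matrix adaptor protein, fell by 1.04 and 1.07 in the traced lines and rose by 1.91 in the hippocampal line, and Slc27a3, an acyl-CoA synthetase, fell by 1.82 and 1.25 and rose by 1.16. Gap43, a growth cone protein, fell by 1.62 and 1.22 and rose by 0.98. The basement membrane genes Nid2 and Col5a1 fell by 0.90 and 1.21 in the tdTomato line and by 1.84 and 1.65 in the EYFP line, and rose by 0.94 and 0.75 in the hippocampal line. Plxnb1 and Ntn4, a semaphorin receptor and a netrin, fell by 1.00 and 1.10 in the tdTomato line and rose by 0.79 and 0.80 in the hippocampal line.

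Of the genes that rose in all lines, Kit, the receptor of stem cell factor, was among those with the largest excess in traced cultures. It was at 12.28 to 12.52 in tdTomato and 12.57 to 12.66 in EYFP astrocytes, and at 9.15, 8.86 and 9.03 in hippocampal astrocytes, from 7.62 to 8.14 in all NSC libraries (difference 3.77, SE 0.15). Pi15, a secreted peptidase inhibitor, rose by 6.15 and 5.65 in the traced lines and by 1.75 in the hippocampal line. Tacr2, a tachykinin receptor, rose by 3.93, 5.33 and 0.85 in the tdTomato, EYFP and hippocampal lines. Of the genes that fell in all lines, Pbk, a mitotic kinase, fell by 5.84 and 5.68 in the traced lines and by 3.06 in the hippocampal line. Igsf21, an adhesion protein of synapses, fell by 6.22, 4.26 and 1.62, and Fndc3c1 by 3.46, 3.43 and 0.76. In hippocampal cultures the larger falls were those of Car3, a carbonic anhydrase, by 4.63 against 0.70 and 2.17, and of Pdzrn4 and Gria2, an AMPA receptor subunit, by 2.54 and 2.62. In the traced lines Pdzrn4 fell by 0.72 and 0.65, and Gria2 by 0.76 and 0.79. Ccnd1, the cyclin that drives entry into the cell cycle, fell by 3.63 and 3.52 in the traced lines and by 2.5 in the hippocampal line. Among 30 proliferation genes and CDK inhibitors, 2 changed more positively in traced and 7 in hippocampal cultures (6.67% and 23.3%, against 18.6% and 23.7% of all genes).

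Markers of astrocytes did not differ in 1 direction. Of 28 tested, 7 changed more positively in traced and 9 in hippocampal cultures (25% and 32.1%, against 18.6% and 23.7% of all genes). Slc1a2, the main glutamate transporter of astrocytes, was at 15.07, 15.06 and 15.08 in tdTomato, at 14.70, 14.79 and 14.89 in EYFP and at 13.89, 14.09 and 14.01 in hippocampal astrocytes. It started lower in traced NSCs, at 11.41 to 12.58 against 12.90 to 13.15, so the order of the origins was inverted (difference 1.93, SE 0.26, adjusted p = 1.1e-05, limma). Gja1, the main gap junction connexin of astrocytes, rose by 2.73 in the hippocampal line against 1.74 and 1.54, and Aqp4, the water channel, by 4.85 against 4.03 and 4.19. Slc1a3, Glul, Aldh1l1, Kcnj10, Fgfr3 and S100b missed the threshold for a difference between origins.

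Among the 32 tested genes of the BMP pathway and its direct targets, 12 changed more positively in traced and 9 in hippocampal cultures (37.5% and 28.1%, against 18.6% and 23.7% of all genes). Without Dlx3, Msx2 and Bmp2, which were below 3.32 in both hippocampal groups, these counts were 9 and 9 of 29. The immediate targets changed in every line and by like amounts: in the order tdTomato, EYFP and hippocampal, Id1 rose by 2.60, 2.84 and 3.15 and Id3 by 1.75, 1.92 and 2.52, which were slightly larger rises in hippocampal cultures (differences of -0.43 and -0.68). Id2, Id4, Atoh8, Smad9, Bambi and Nog missed the threshold for a difference. Inhibitory Smads rose more in traced cultures, Smad7 by 3.20 and 2.65 against 1.92 and Smad6 by 3.92 and 3.66 against 3.06. The receptor gene Bmpr1b rose by 2.96 and 2.21 against 1.56. Msx1, a homeobox target of BMPs, rose by 2.42, 2.33 and 1.54. Its relative Msx2 was weak, with group means from 1.69 to 4.54, and Msx2 passed the limit on low values only in tdTomato astrocytes. Of the ligands, Bmp7 fell by 3.22, 3.28 and 3.98, while Bmp2 changed by 2.35, 0.89 and 0.28 with a difference that was lost with the EYFP line alone or without either of 2 hippocampal libraries. Cdkn1a, an inhibitor of cyclin-dependent kinases, fell by 0.83 and 1.37 in the traced lines and changed by -0.05 in the hippocampal line.

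In the TGF-beta list of 17 genes, 6 changed more positively in hippocampal cultures and 1 in traced cultures (35.3% and 5.88%, against 23.7% and 18.6% of all genes). Ccn2, a matrix protein induced by TGF-beta, fell by 3.33 and 4.28 in the traced lines and by 1.37 in the hippocampal line. Among 23 Notch genes, 8 changed more positively in traced and 3 in hippocampal cultures (34.8% and 13%, against 18.6% and 23.7% of all genes). Dlk1, below 3.32 in all groups, missed the threshold. Hes5, a Notch target of neural progenitors, changed by 1.32 in the tdTomato line, by -0.12 in the EYFP line and by -2.26 in the hippocampal line, so the traced lines themselves differed. Hes5 was at 5.02 to 5.95 in tdTomato and at 7.76 to 8.20 in the other NSC libraries. Dll4, a Notch ligand, rose by 3.63, 2.46 and 1.29, while Hes1 missed the threshold for a difference. Of 38 Wnt genes 13 changed more positively in traced and 7 in hippocampal cultures (34.2% and 18.4%, against 18.6% and 23.7% of all genes), or 13 and 6 of 36 without Rspo3 and Nkd2, which were below 3.32 in both hippocampal groups. Wif1, a secreted Wnt inhibitor, rose by 3.93 and 2.74 against 1.40, and Wnt7b fell by 2.66 and 2.76 against 0.86. Of 17 sonic hedgehog genes these numbers were 7 and 4 (41.2% and 23.5%), or 7 and 2 of 15 without Dhh and Foxa2, which were below 3.32 in both hippocampal groups. Gli2, a transcription factor of the pathway, changed by 1.09, -0.52 and -1.43, again with a difference between the traced lines.

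Among 36 genes of EGF, FGF and MAPK feedback, whose ligands were withdrawn for differentiation, 6 changed more positively in each origin (16.7%), which is below the 18.6% and 23.7% of all genes. Without Fgf9 and Ereg, below 3.32 in both hippocampal groups, the counts were 5 and 5 of 34. Ereg, an EGF receptor ligand, fell by 2.80 and 3.60 in the traced lines and by 0.93 in the hippocampal line. Fgf1 went the other way, with changes of 0.47 and 0.78 in the traced lines and of -1.19 in the hippocampal line. Phlda1, a gene induced by growth factors, fell by 0.78 and 0.97 in the traced lines and rose by 0.54 in the hippocampal line.

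Hox genes, which set the position along the body axis, changed more positively in traced cultures for 13 of 33 tested (39.4%, against 18.6% of all genes) and more positively in hippocampal cultures for 1 (Hoxb7). The count in traced cultures was 10 to 18 over all alternative settings. In the hippocampal line 15 of the 33, Hoxb7 among them, stayed below 3.32 in both states. Of the other 18, 9 were more positive in traced and none in hippocampal cultures. In the hippocampal line 1 of the 33 rose and 4 fell, against 22 rises and 3 falls in the tdTomato line and 15 rises and 3 falls in the EYFP line. Hoxb9, a thoracic Hox gene, was at 8.95 to 9.13 in tdTomato NSCs and 10.76 to 10.96 in the astrocytes, at 8.14 to 8.56 and 9.40 to 9.70 in the EYFP line, and at 4.46 to 4.65 in all hippocampal libraries. Hoxc8 rose by 1.72 and 1.07 in the traced lines, and changed by 0.16 in the hippocampal line. The anterior genes Hoxa2 and Hoxa3 were expressed in both origins and went in opposite directions. Hoxa2 was at 7.32 to 7.90 in traced NSCs and at 8.74 to 9.25 in traced astrocytes, and went from 6.55, 6.74 and 6.75 to 5.19, 5.74 and 5.66 in hippocampal cultures (difference 2.53, SE 0.15). Hoxa3 rose by 1.04 and 0.75 and fell by 0.86. The annotated transcripts of Hoxa2 share 11.46% of their 75-base stretches with other genes.

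**Figure D4:**
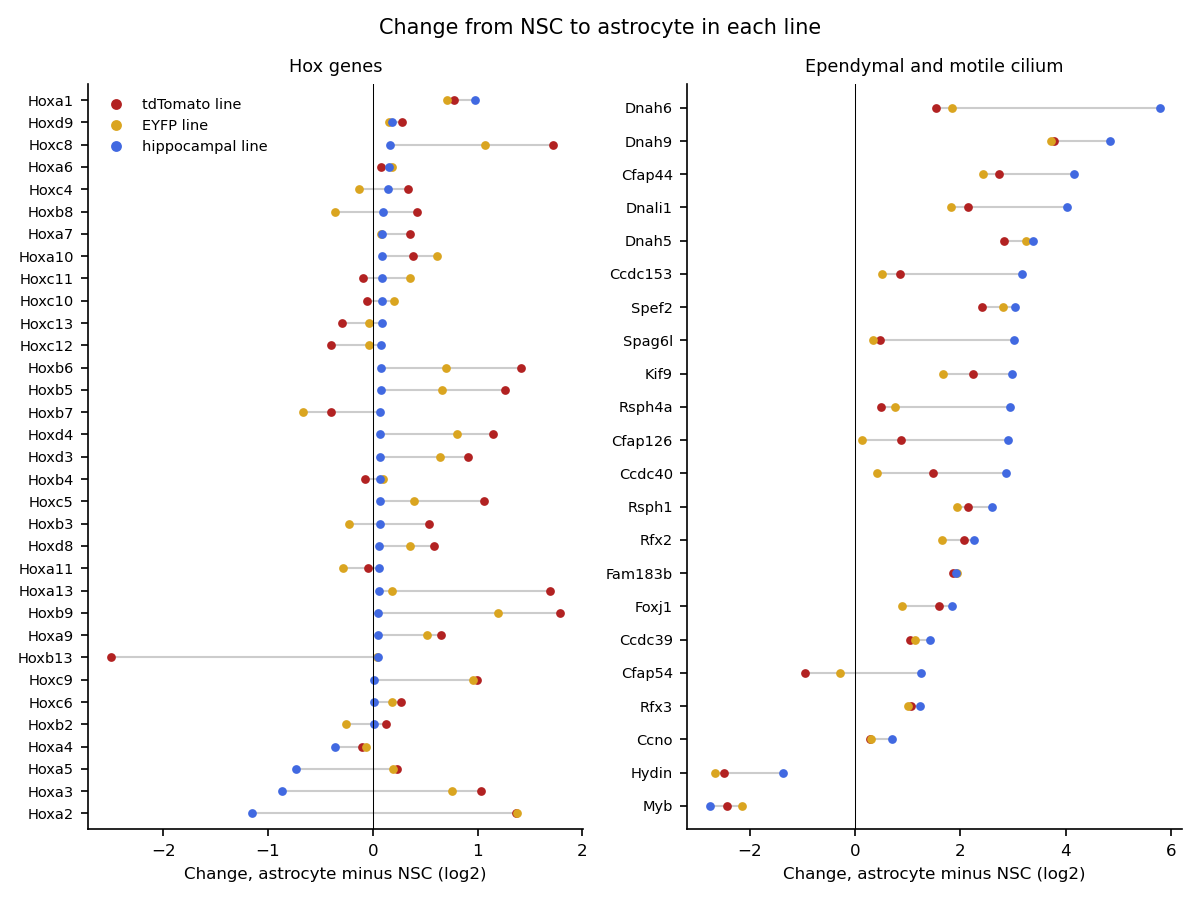
Rows are the tested Hox genes (left) and the tested genes of the motile cilium (right), with the log2 change from NSC to astrocyte in the tdTomato (red), EYFP (yellow) and hippocampal (blue) line on the horizontal axis. The hippocampal changes of most Hox genes lie at 0, where 15 of 33 were below 3.32 in both states. Those of Hoxa2, Hoxa3, Hoxa4 and Hoxa5 lie below 0, while most cilium genes have their largest change in the hippocampal line.

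Other transcription factors of regional identity moved in both directions. Of 22 factors of the forebrain, 4 changed more positively in traced and 10 in hippocampal cultures (18.2% and 45.5%, against 18.6% and 23.7% of all genes). Without 1 gene below 3.32 in all traced groups, the counts were 4 and 9 of 21. Among these factors Six3, Dmrta2 and Lhx2 fell in traced cultures only, by 2.05, 1.68 and 1.25 in the tdTomato line and by 1.47, 1.33 and 1.53 in the EYFP line. Zic2 rose by 1.39 in the hippocampal line. Among 16 factors of the spinal cord and its dorsoventral axis, 8 changed more positively in traced and 4 in hippocampal cultures (50% and 25%, against 18.6% and 23.7% of all genes). Pax2 and Msx2 were below 3.32 in both hippocampal groups and Lmx1a in all traced groups, and without them the counts were 6 and 3 of 13. Irx3 rose by 1.70 and 1.06 in the traced lines, whereas Irx1 fell there by 2.06 and 1.63, and the hippocampal changes were 0.23 and -0.12. Lmx1a, a roof plate factor, changed by 4.96 in the hippocampal line and by 1.59 and 0.51 in the tdTomato and EYFP lines. Of 24 NFI and other gliogenic factors 13 changed more positively in hippocampal cultures, 3 of them by at least 1, and 6 in traced cultures (54.2% and 25%, against 23.7% and 18.6% of all genes).

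Among 41 ion channels and transporters of glia, 15 changed more positively in traced and 11 in hippocampal cultures (36.6% and 26.8%), and among 52 axon guidance genes 17 and 16 did (32.7% and 30.8%), against 18.6% and 23.7% of all genes. Without Kcna1, Trpv4, Unc5d and Slit3, each below 3.32 in all groups of an origin, the counts were 15 and 10 of 39 and 16 and 16 of 50. Sema5b, a transmembrane semaphorin, changed by 0.13, -0.73 and -2.53 in the tdTomato, EYFP and hippocampal lines. Of 40 proteoglycans and matrix glycoproteins, 14 changed more positively in traced and 10 in hippocampal cultures (35% and 25%), or 12 and 10 of 36 without Lum, Spon2 and Mfap2, below 3.32 in both hippocampal groups, and Matn4, below it in all traced groups. Bgn, the proteoglycan biglycan, rose by 3.87 and 3.39 against 1.92, whereas Tnc, tenascin-C, fell by 1.29 and 2.31 against 3.19. Of 22 metallothionein and oxidative stress genes these numbers were 6 and 8 (27.3% and 36.4%). Gsr, glutathione reductase, fell by 1.67 and 1.20 in the traced lines and changed by -0.35 in the hippocampal line.

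**Figure D5:**
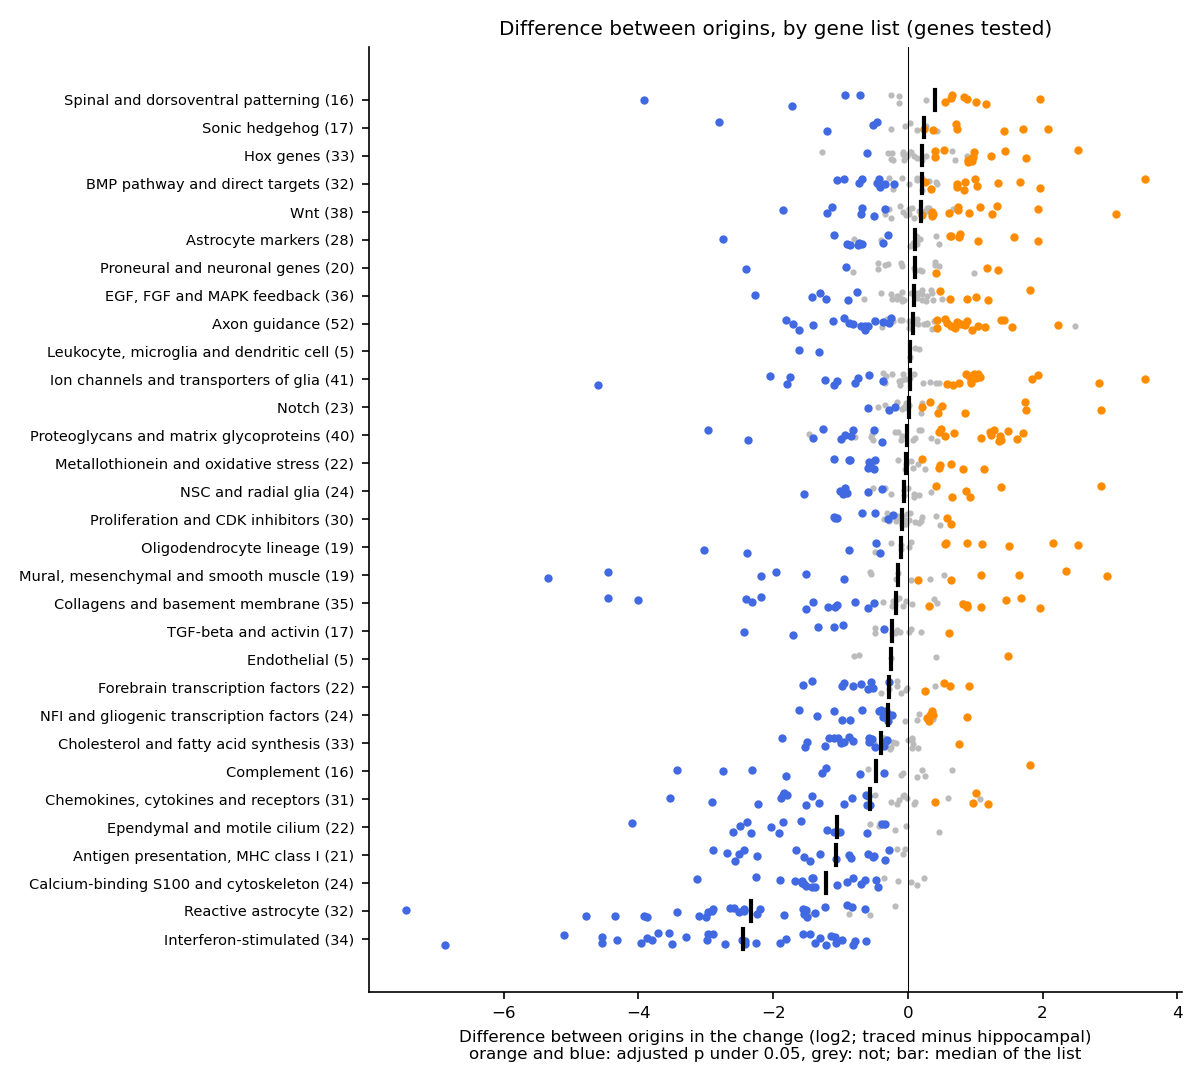
Each point is a gene tested, with the difference between origins in its change (log2, traced minus hippocampal) on the horizontal axis and the gene lists on the vertical axis, ordered by their medians (bars), with the number tested in brackets. Orange and blue points passed an adjusted p under 0.05; the interferon-stimulated and reactive astrocyte genes lie furthest to the left, with medians of -2.44 and -2.33, and genes shared by lists appear in each.

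Markers of other cell types were examined in the same libraries. Ptprc, Aif1, Itgam and Csf1r, which define leukocytes and microglia, were below 3.32 in all libraries, and the log2 of the summed leukocyte markers was 2.56 to 2.76 in hippocampal and 3.71 to 5.83 in traced astrocytes. Pecam1, Ly6c1 and Cdh5 of endothelial cells were below that level in all libraries too. The summed markers of the oligodendrocyte lineage were 15.86 to 16.17 in NSCs, 15.07 to 15.29 in traced astrocytes and 14.36 to 14.54 in hippocampal astrocytes, with Sox10 and Mog below 3.32 in all libraries. Those of ependymal cells were 9.46 to 10.51 in NSCs, 11.02 to 11.36 in traced and 12.16 to 12.33 in hippocampal astrocytes, so they moved with the cilium genes, and their part in that result was not tested. The summed markers of pericytes and smooth muscle were 7.44 to 7.77 in hippocampal NSCs and 9.33 to 9.73 in the astrocytes, and 8.17 to 9.34 in traced NSCs and 8.23 to 8.87 in the astrocytes. Vtn, which is 1 of them, changed by 6.58 in the hippocampal line, and Pdgfrb was below 3.32 in all libraries. The part of these markers in the rises of collagen VI genes was not tested. Astrocyte markers summed to 15.94 to 16.83 in NSCs, 17.71 to 18.08 in traced and 18.26 to 18.38 in hippocampal astrocytes. Those of NSCs and radial glia, which include Vim, were 16.56 to 16.72 in NSCs, 16.55 to 16.78 in traced and 17.62 to 17.92 in hippocampal astrocytes. The part of either in the other differences was not tested.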

How the data were processed

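RNA was sequenced from 18 cultures, 3 for each of 3 lines and 2 states. Per the labels, libraries were made with a stranded kit and sequenced from one end. The submitters' processing notes name Trimmomatic 0.36, STAR 2.5.2, RSEM 1.3.0, DESeq2 1.18.1 and the build GRCm38. The authors deposited log2 values of 27997 genes, normalised with DESeq2 from RSEM estimates; the transform is not named, 29.39% of the values are negative and depth per library is unknown. All 18 value columns were used. Groups were taken from the sample titles.

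From these values, limma 3.58.1 in R 4.3.3 fitted line, state and the interaction of state with origin for 15448 genes with at least 3.32 in 3 libraries. Calls were made at an adjusted p under 0.05 (Benjamini-Hochberg). Changes per line came from a fit of the 6 group means. The steps were tested on simulated data. Alternatives covered the model, the filter, a pseudocount, the scaling, the class limits, each traced line alone and each library left out.

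The genes, the 31 lists and the classes were chosen with earlier results of these data known. Named by rule were the protein-coding genes that reached 6.64 (100 on the linear scale) in a group and had the largest differences, 5 per class of 1 origin or opposite direction and 3 per class of unequal size, and up to 4 genes of each list with a difference of at least 1, 138 genes in all. Nes, the Y-linked genes and Xist were left out of this rule. Other genes in the text were chosen after their values were seen. Gene positions are those of GENCODE M21, promoters those of RefSeq (GRCm38.p6). Shared sequence is the share of 75-base stretches of the annotated transcripts that occur in another gene. Some of the genes that the rule names are not reported here.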

Additional observations from a re-analysis of the deposited data

Results flagged for a closer look

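The change from NSC to astrocyte differed by test between the origins for 6526 genes, and for 86 of them it went in opposite directions, 35 up in traced and down in hippocampal cultures and 51 the reverse. Among the genes with the largest opposite changes were Bmper (difference 3.52), Timp4 (2.80), Kcnc4 (2.75) and Kcnh2 (2.73), which rose in traced cultures, and Plau (-3.70), Gjc3 (-3.03), Matn2 (-2.97), Slc27a3 (-2.70) and H2-Q4 (-2.56), which rose in hippocampal cultures. Each of these was named because of this difference (limma, adjusted p under 0.05). Those that rose in traced cultures rose more in the tdTomato than in the EYFP line, and each of them also passed the test between the traced lines. Of the 138 named genes, 53 (38.4%) passed that test, 27 of them with a difference of at least 1, against 13.3% of all genes tested.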

How the results depend on the processing

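Of 138 named genes, 131 kept their direction and their side of the threshold in all 30 alternative settings in which they were tested, 18 of which left out a library, and no named gene changed sign. The exceptions reported here were St6gal2, Bmp2, Mfng and Nqo1 without the line in the model, and Dlx3, Bmp2 and Cdk6 with the EYFP line alone. Bmp2 was also lost without hippocampal NSC replicate 2 or hippocampal astrocyte replicate 3, and Cdk6 without hippocampal NSC replicate 3 or hippocampal astrocyte replicate 2. Genes that passed the limit on low values through 1 group alone could not be tested without a library of that group. Leaving out 1 library moved none of the counts of differences between origins, of changes per line or of classes by over 1.5 times. Most of the list counts were not redone without a library. The labels do not say what a replicate number stands for. Deviations of same-numbered libraries of the same state in other lines correlated at 0.01 to 0.31 (mean 0.11, 9 of 18 pairs over 0.1), and those of other numbers at a mean of -0.05 (1 of 36 pairs over 0.1). Since not every pair was over 0.1, the numbers were not taken to pair the samples. Same-numbered libraries of different states correlated at a mean of -0.02 within a line and 0.004 between lines. With a replicate block shared by both states, 6493 genes differed between the origins in place of 6526. Such a block does not model a pairing that holds within a state only.

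The counts of genes that changed in 1 origin depended on their limits. In the order traced rise, traced fall, hippocampal rise and hippocampal fall they were 148, 102, 186 and 67. They were 78, 46, 46 and 23 when the other origin had to stay within 0.25, and 32, 9, 48 and 5 when the change had to reach 2. When the other origin was instead judged by its 95% interval, 328 genes rose and 135 fell in hippocampal cultures only. With the tdTomato line alone against the hippocampal line they were 269, 188, 296 and 138, with 66 genes up in tdTomato and down in hippocampal cultures, 111 the reverse, and 126 and 86 larger falls. With the EYFP line alone, 299 rose and 101 fell in hippocampal cultures only and 81 rose in hippocampal and fell in EYFP cultures. With no limit on low values, 297 rose in hippocampal cultures only. With the limit at 100, where fewer genes were tested, the counts were 72, 67, 115 and 44, with 23 up in traced and down in hippocampal cultures, 101 and 201 larger rises in traced and hippocampal cultures, 30 larger falls in hippocampal cultures, and 327 and 578 differences of at least 1. With a pseudocount of 10, there were 21 genes up in traced and down in hippocampal cultures, 102 larger rises and 52 larger falls in traced and 27 larger falls in hippocampal cultures. With quantile normalization, 53 genes were up in traced and down in hippocampal cultures and 80 had larger falls in hippocampal cultures. Apart from the limits themselves and the number of genes or samples tested, the cause of these shifts was not tested.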
